A study of Mus musculus with 23 samples.

Results

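Endothelial cells (EC) were sorted on CD31 from wild-type C57BL6 mouse lungs. Their microRNAs were read by NanoString nCounter, a method that counts a barcode for each probe without amplification. The samples compared here were chosen by their labels, as the EC samples of the 2 stages after birth and the 2 stages before it, 6 of the 23 samples of the series. The postnatal side had 3 samples, 1 at postnatal day 1 (P1) and 2 at day 7 (P7). The embryonic side had 3 samples, 2 at embryonic day 16.5 (E16.5) and 1 at day 18.5 (E18.5). The other 17 samples were 4 EC samples of P14 and P28 and 13 samples of type II pneumocytes (AT2), the surfactant-producing cells of the alveolus. No group carried a treatment or a mutation. E18.5 and P1 had 1 EC sample each, so their own spread was not measured, and the labels do not say whether animals were pooled or samples came from separate animals. The p-values therefore rest on sample-to-sample spread that may be technical.

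Before birth the lung is filled with fluid and little blood passes through it. With the first breaths oxygen rises and the pulmonary vessels open to the whole cardiac output, and in the days that follow the capillary network grows along with the forming alveoli. MicroRNAs are short RNAs that guide Argonaute proteins to matching sites in messenger RNAs and lower their output, and in endothelial cells they are known to act on growth, sprouting and vessel integrity. CD31 is a junctional adhesion molecule of endothelial cells that platelets and some leukocytes also carry. Neither the files nor the reference tables link the MIMAT identifiers to names, so microRNAs are given by identifier, with at most 2 per direction in each comparison. A check of the sort against named endothelial microRNAs and the printing of mature sequences were not possible for the same reason.

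The postnatal samples held more microRNA counts. Recovered microRNA counts were 571706 at P1 and 341502 and 374825 at P7, against 117534 and 126510 at E16.5 and 36373 at E18.5. Sums of the 6 graded ERCC control rows overlapped. They were 40780 at P1 and 21702 and 37081 at P7, against 16957 and 40949 at E16.5 and 39101 at E18.5. Why the microRNA counts differed was not tested. The deposited values are the microRNA counts times 1 factor per sample, so a sample with a large factor carries a higher background on the scaled axis. The background limit, the mean plus 2 SD of 8 negative control rows, was 14.4 at P1 and 21.9 and 28.2 at P7, against 48.9 and 39.2 at E16.5 and 95.1 at E18.5, all in scaled units. The limits of the 2 sides did not overlap. Probes that were above background in none of the 23 samples, 248 of the 602, had lower values after birth in all 248 cases, with a median log2 difference of -1.68. For this reason the highest limit, 95.1, is used below as a common floor, and a microRNA is described as well measured when every sample of its higher side lay above it.

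The endothelial profile kept the same leading microRNA across birth. MIMAT0000138 was the highest microRNA in each of the 6 samples. It took 33.3% of the microRNA counts at P1 (95% Wilson interval 33.2 to 33.5) and 42.9% and 39.7% at P7 (42.8 to 43.1 and 39.5 to 39.8), against 39.7% and 33.9% at E16.5 (39.4 to 40.0 and 33.6 to 34.1) and 31.9% at E18.5 (31.4 to 32.4). The intervals cover counting error only. The sides overlapped, with means of 38.7% ± 4.89 after birth and 35.2% ± 4.06 before it (SD, n = 3 each; exact permutation test, two-sided, p = 0.5, where 0.1 is the smallest p that 3 samples against 3 allow). The 10 highest microRNAs of a sample together held 60.8%, 66.8% and 65.2% of the counts in the postnatal samples, against 66.1%, 63.8% and 60.6% in the embryonic ones. The samples that stood lowest on both measures were the single samples, P1 and E18.5.

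Below the leading microRNA, 34 well-measured microRNAs differed between the sides, 14 higher and 20 lower after birth. They come from 78 of 302 tested microRNAs that passed the threshold (25.8%), 14 higher (4.64%) and 64 lower (21.2%) after birth (limma across all 23 samples, Benjamini-Hochberg adjusted p under 0.05). Of the 14 that rose, 12 rose by 2-fold or more, with a median log2 change of 1.32 and a range of 0.93 to 2.51. Of the 20 that fell, 18 fell by 2-fold or more, with a median of -1.64 and a range of -0.84 to -2.68. The lower side was above its own background limits in all 3 samples for 8 of the 14 and 18 of the 20. For the rest the fold change includes values at background. The median over all 302 was -0.62. Values of the sides did not overlap for 9 of the 14 and for 17 of the 20. Over all tested microRNAs, non-overlap was found for 5.3% with postnatal values above and for 34.8% with postnatal values below. The 34 were chosen on these same samples, so their non-overlap describes them and is no test.

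The other 44 microRNAs that passed with lower values after birth lay near background. Their embryonic geometric means ranged from 18.7 to 106 scaled units with a median of 39.3, and their median log2 change, -1.66, stands beside the -1.68 of the undetected probes. Split by mean value over all 23 samples, the 127 microRNAs above the floor had a median change of -0.05, with 14 higher and 16 lower, and the 175 below it had a median of -0.85, with 0 higher and 48 lower by limma. Of those 175, 1 was higher at an unadjusted p under 0.05, and edgeR's quasi-likelihood test on recovered counts called 4 higher. With the common floor applied to all samples, 4 of the 44 passed, against 17 of the 20 well-measured ones that fell. The 44 were set apart by this same floor, so a low count among them follows in part from how they were defined. The part of background in the 44 was not tested beyond this.

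**Figure D1:**
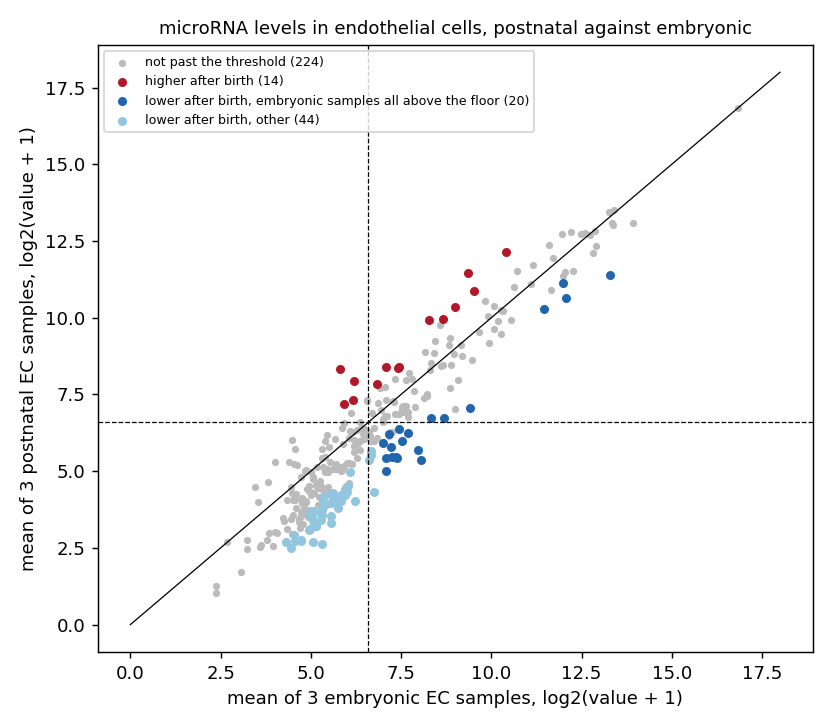
Mean level of each of the 302 tested microRNAs in the 3 postnatal EC samples (vertical axis) against the 3 embryonic EC samples (horizontal axis), both as log2(value + 1), with the common floor of 95.1 as dashed lines and equality as a solid line. The 14 microRNAs higher after birth lie above the line at moderate to high levels, and most of those lower after birth lie below the floor.

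The balance of the directions depends on how samples are scaled. With the samples aligned on the median of the tested microRNAs, which brought the median change of all 302 to -0.12, 28 were higher and 20 lower after birth, of which 24 and 10 were well measured. With edgeR on the recovered counts 30 were higher and 17 lower, of which 26 and 9 were well measured. All 14 that rose also passed under both, and of the 20 that fell 10 passed with the median shift and 9 with edgeR. The direction of each of the 34 was the same under both. A statement that more microRNAs fell than rose across birth therefore holds for the deposited scaling and not for these alternatives.

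MIMAT0000535 rose most among the well-measured microRNAs on the deposited scale. Its scaled values were 414 at P1 and 243 and 321 at P7, against 48.9 and 33.3 at E16.5 and 103 at E18.5. Each postnatal sample was above every embryonic one, and within the embryonic side the E18.5 sample was the higher. On the log2(value + 1) scale it averaged 8.32 ± 0.38 after birth and 5.81 ± 0.81 before birth (SD, n = 3 each). The change was 2.51 ± 0.36 (SE; limma, adjusted p = 2.84e-04). Before birth it held 16, 12 and 13 counts and only 1 of the 3 samples was above its background limit, so with samples below their limit set to it the values were at least 5.47-fold higher after birth (between geometric means). In the later EC samples it stood at 1382 and 399 at P14 and 2323 and 2307 at P28. With the common floor the log2 change of MIMAT0000535 was 1.69 and that of MIMAT0000128 was 2.10, so MIMAT0000535 no longer led.

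MIMAT0000128 also rose, from a higher embryonic level. Its values were 1603 at P1 and 4117 and 3349 at P7, against 595 and 694 at E16.5 and 674 at E18.5. The 3 embryonic samples lay close together, the P1 sample was intermediate and the P7 samples were highest. It averaged 11.45 ± 0.72 after birth and 9.35 ± 0.12 before birth on the log2 scale (SD, n = 3 each). The change of 2.10 ± 0.27 (SE; limma, adjusted p = 1.20e-04) corresponds to 4.29-fold, with all 6 samples above background. At P14 it had 1917 and 3609 and at P28 4492 and 6298.

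MIMAT0009455 fell most among the well-measured microRNAs on the deposited scale. Its values were 73.7 at P1 and 34.7 and 25.2 at P7, against 290.05 and 266 at E16.5 and 238 at E18.5. Every postnatal sample was below every embryonic one, with P1 between the P7 samples and the embryonic ones. The log2 change was -2.68 ± 0.50 (SE; limma, adjusted p = 0.00171). In 1 of the 3 postnatal samples, a P7 sample, it was below the background limit, and with that sample set to its limit the values were at least 6.34-fold lower after birth. In the later EC samples it had 14.5 and 28.8 at P14 and 19.3 and 7.19 at P28, all below the background limits of their samples. With the common floor the log2 change of MIMAT0009455 was -1.46 and that of MIMAT0003151 was -2.33, so MIMAT0009455 no longer led.

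MIMAT0003151 was lower at each stage than at the one before, through P7, with all 6 samples above background. It had 212 at P1 and 124 and 90.5 at P7, against 849 and 916 at E16.5 and 412 at E18.5. The E18.5 value lay between the E16.5 values and the P1 value, and the sides did not overlap. The log2 change was -2.35 ± 0.40 (SE; limma, adjusted p = 0.00118), which is 5.09-fold lower after birth. The later EC samples held 211 and 61.8 at P14 and 108 and 148 at P28.

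**Figure D2:**
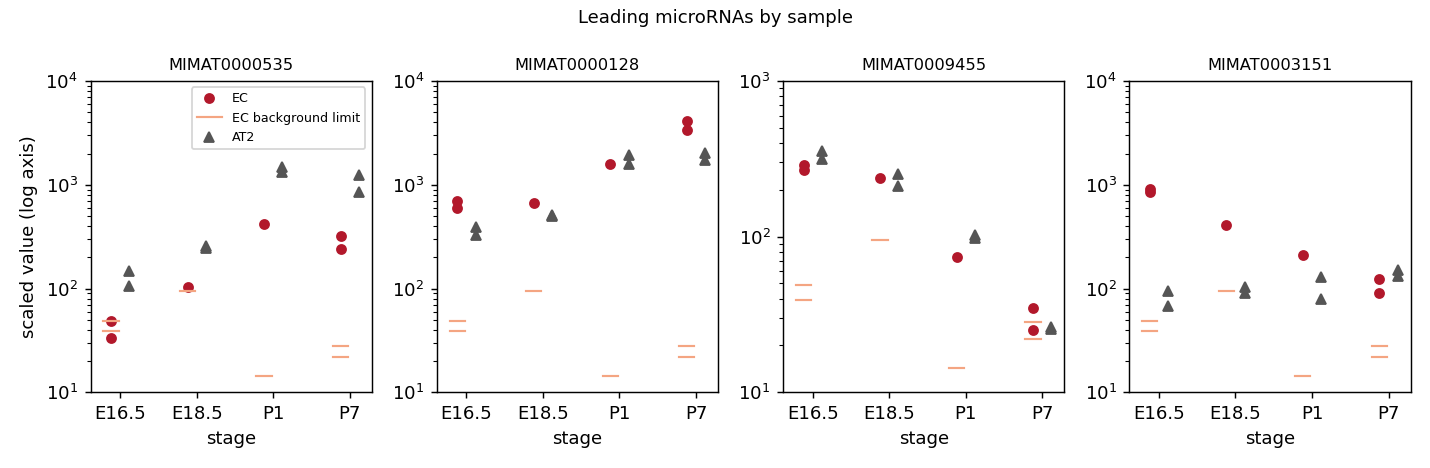
Scaled values (log axis) of the 2 microRNAs that rose most and the 2 that fell most in EC, by stage, with each EC sample as a circle, its background limit as a short line and each AT2 sample as a triangle. MIMAT0000535, MIMAT0000128 and MIMAT0009455 lie on the same side after birth in both cell types, and MIMAT0003151 is lower after birth in EC and between 68.3 and 151 in AT2 cells at all 4 stages.

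The next question is where along the 4 stages the well-measured changes lay. Among the 14 that rose, the median step was -0.10 between E16.5 and E18.5, 1.07 between E18.5 and P1, and 0.76 between P1 and P7, on the log2 scale. All 14 had a positive step between E18.5 and P1, 7 had one between E16.5 and E18.5, and 9 had one between P1 and P7. The step across birth was the largest of the 3 for 8 of the 14. Among the 20 that fell, the median steps were -0.30, -1.09 and 0.10, 19 had a negative step between E18.5 and P1, and that step was the largest fall for 12. Between P1 and P7, 11 of the 20 had a positive step. Over all 302 tested microRNAs the median steps were 0.11, -0.71 and 0.35, so the panel as a whole was also lower at P1 than at E18.5. Of the 6 EC samples, E18.5 had the highest background limit and P1 the lowest, at 95.1 and 14.4. The part of this shared shift in the steps of the 20 was not tested. The microRNAs were chosen on these same samples, so the steps describe them and are no test.

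**Figure D3:**
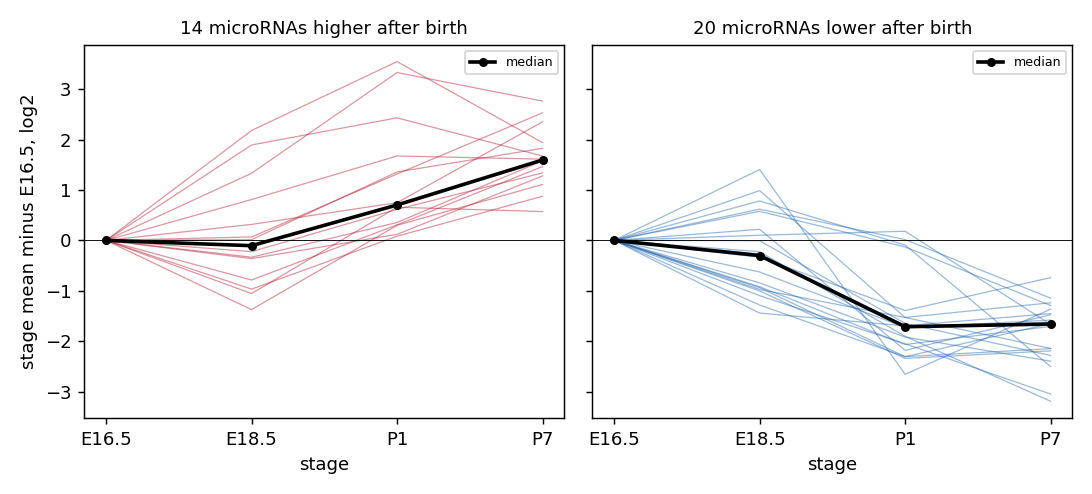
Stage means minus the E16.5 mean (log2) in EC for the 14 well-measured microRNAs that rose and the 20 that fell, as thin lines, with their median in black. The thin lines spread in both directions at E18.5, and the largest part of the median course lies between E18.5 and P1 for the 20 that fell. That step had a median of -0.71 over all 302 tested microRNAs.

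Single steps passed the test for few microRNAs. Between E16.5 and E18.5 limma called 0 of 302, with 44 at an unadjusted p under 0.05, and edgeR also called 0, with 27 at an unadjusted p under 0.05. With the common floor 21 passed, 10 higher and 11 lower at E18.5. The median SE of a step was 0.66 for this one and 0.77 for E18.5 to P1, against 0.44 for the comparison of 3 samples with 3, and each step rests on at least 1 single sample.

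Between E18.5 and P1, the step that spans birth, 4 microRNAs passed (1.32% of those tested), all lower at P1. This step sets 1 EC sample against 1, so its SE and p come from the spread within the other groups, and these samples are assumed to vary like them. Of those with an E18.5 value above the common floor, 2 are named. MIMAT0004546 had 15.8 scaled units at P1, against 229.9 at E18.5 (log2 -3.78 ± 0.86, SE; limma, adjusted p = 0.0352). Its recovered counts ran the other way, 40 at P1 against 29 at E18.5, with the higher microRNA total at P1. MIMAT0000147 had 12.6 at P1, against 166 at E18.5 (log2 -3.62 ± 0.85, SE; limma, adjusted p = 0.0352), or 32 counts against 21. Its P1 value was below the background limit of that sample, and with P1 set to the limit it was at least 11.6-fold lower at P1. At E16.5 both were lower than at E18.5, with 67.2 and 77.7 for MIMAT0004546 and 33.6 and 30.5 for MIMAT0000147. With the median shift 0 microRNAs passed this step (45 at an unadjusted p under 0.05), and with edgeR 0 (46). With the common floor 12 passed, and with specimen number as a random block 12 passed, 2 higher and 10 lower at P1.

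Between P1 and P7 a single microRNA passed (0.331%). MIMAT0001092 had 26.6 and 15.66 scaled units at P7, against 149.7 at P1, a log2 change of -2.81 ± 0.52 (SE; limma, adjusted p = 0.0122). It was above background in 1 of the 2 P7 samples, and with the other set to its limit the values were at least 5.47-fold lower at P7. Before birth it stood at 91.6 and 88.8 at E16.5 and 111 at E18.5, so the P1 value was the highest of the 4 stages. In AT2 cells it had 122 and 87.4 at P7, against 667 and 303 at P1. In the later EC samples it stood at 38.6 and 28.8 at P14 and 11.6 and 7.19 at P28. With the common floor its change was -0.65 and did not pass (limma, adjusted p = 0.324), since both P7 values lie below the floor. With edgeR 11 microRNAs passed this step, all lower at P7.

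The specimen numbers in the titles start with 15 or 16, and the 6 samples divide into 2 comparisons across birth that share no sample. Within prefix 15, P7 minus E18.5 called 51 microRNAs, 11 higher (3.64%) and 40 lower (13.2%). Within prefix 16, P1 minus E16.5 called 11, 4 higher (1.32%) and 7 lower (2.32%), both by limma. What the prefix stands for is not stated, and it differs here together with the stages. Over the 127 microRNAs with a mean above the common floor, the changes of these comparisons were nearly unrelated (Pearson r = 0.05, Spearman rho = 0.11, across microRNAs and given as a description, with 3 libraries behind each comparison), and 66 of the 127 had the same sign in both. The 34 well-measured microRNAs were chosen on the joint comparison, and 30 of them had the same sign in both. For MIMAT0000535 the values were 1.43 for P7 minus E18.5 and 3.33 for P1 minus E16.5, for MIMAT0000128 2.46 and 1.32, for MIMAT0009455 -2.96 and -1.90 and for MIMAT0003151 -1.95 and -2.05.

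The single samples also differed in microRNAs that are high in AT2 cells. At P14 and P28, 13 microRNAs were higher in AT2 cells than in EC by 4-fold or more and above the common floor in every AT2 sample. EC P14 replicate 2 and EC P28 replicate 2 were not used to define them. On the list so defined these samples held AT2-high sums of 12182 and 7629, the highest of the 10 EC samples. As the list was made without them, the sums are no independent reason to leave them out. The summed scaled value was 5573 at P1 and 2753 and 3414 at P7, against 2531 and 1615 at E16.5 and 4447 at E18.5. In the AT2 samples of the same stages it was between 12109 and 19414. The sum of 26 microRNAs higher in EC by the same rule was lowest in the same samples, at 107269 at P1 and 127514 at E18.5, against 165219 or more in the other 4. Most of this sum was the leading microRNA, MIMAT0000138, at 75076 at P1 and 92001 at E18.5, against 118858 or more in the other 4. As the higher AT2-high sums fell on 1 sample of each side, the sides overlapped. Of the 14 microRNAs that rose 2 are among the AT2-high ones, and of the 20 that fell 0 are. The part of AT2 RNA in the changes was not tested. Without P1, 47 microRNAs passed, 14 higher and 33 lower after birth, and 26 of the 34 were among them. Without E18.5, 33 passed, 9 higher and 24 lower, and 21 of the 34 were among them. Without both, 37 passed, 14 higher and 23 lower, 22 of the 34 were among them and all 34 had the same direction. Without P7 replicate 1 the count was 41.

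Most of the microRNAs that rose in EC also rose in AT2 cells of the same stages. In AT2 cells, with 4 samples after birth and 4 before it, 118 of 302 passed (39.1%), 19 higher (6.29%) and 99 lower (32.8%) after birth (limma, with the stage weights of EC). Of the 14 microRNAs that rose in EC, 12 also rose in AT2 cells, 85.7% of the EC list and 63.2% of the AT2 list. Of the 64 that were lower in EC, 45 were lower in AT2 cells, 70.3% of the EC list and 45.5% of the AT2 list, and of the 20 well-measured ones 17 were. The 34 had a median AT2 change of 1.46 for those that rose in EC and -1.75 for those that fell. Over the 127 microRNAs above the common floor the changes of the cell types had a Pearson r of 0.51 and a Spearman rho of 0.68, given as a description. Each of the 6 EC samples shares its specimen number with an AT2 sample, and in AT2 cells too the background limits fell without overlap, between 6.16 and 8.26 after birth, against 15.59 to 57.2 before it. For MIMAT0000535 the AT2 change was 2.84, for MIMAT0000128 it was 2.19 and for MIMAT0009455 it was -2.83, and the interval of the EC minus AT2 difference was -1.36 to 0.69, -0.86 to 0.68 and -1.28 to 1.57 (95%, limma).

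**Figure D4:**
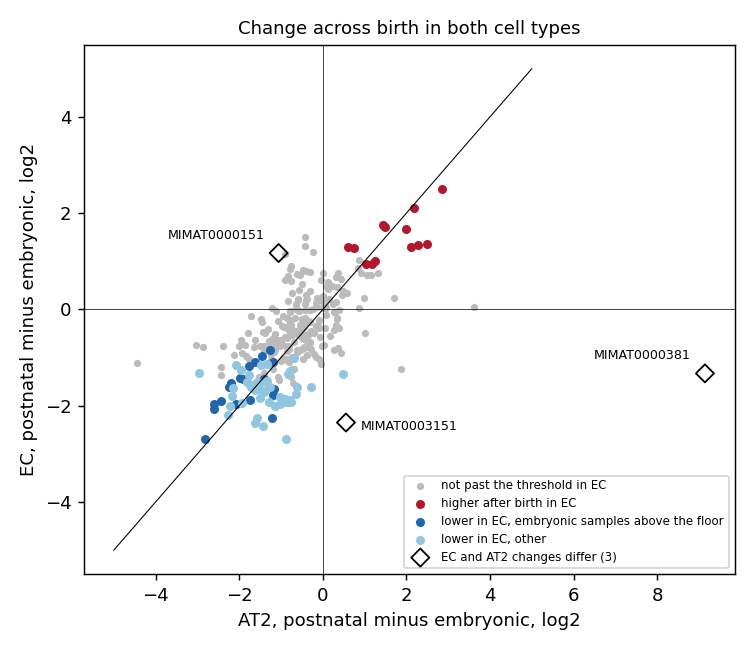
Postnatal minus embryonic change (log2) of each tested microRNA in EC (vertical axis) against AT2 cells (horizontal axis), with microRNAs past the threshold in EC in colour and the 3 whose changes differed between cell types as open diamonds. Most coloured points lie in the quadrants where both cell types moved the same way, and MIMAT0003151, MIMAT0000151 and MIMAT0000381 lie away from it.

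The change across birth differed between the cell types for 3 microRNAs (0.993% of 302), 1 more positive and 2 more negative in EC (limma interaction contrast). With specimen number as a random block 7 passed, and with the common floor 34. MIMAT0003151 fell in EC, as given above. In AT2 cells it had 79.95 and 129 at P1 and 132 and 151 at P7, against 68.3 and 94.97 at E16.5 and 90.9 and 104 at E18.5, a change of 0.55 ± 0.37 (SE; limma, adjusted p = 0.232). The EC minus AT2 difference was -2.90 ± 0.54 (SE; limma, adjusted p = 0.00686). Of 18 alternatives 2 did not pass, at -2.55 without EC P7 replicate 2 (limma, adjusted p = 0.0686) and -2.65 without EC E16.5 replicate 2 (limma, adjusted p = 0.0523). Before birth every EC sample was above every AT2 sample, and after birth the cell types overlapped.

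MIMAT0000151 moved in opposite directions. In EC it had 114 at P1 and 235 and 152.3 at P7, against 76.3 and 72.15 at E16.5 and 63.4 at E18.5, a change of 1.17 ± 0.39 (SE; limma, adjusted p = 0.0342). The E18.5 value was below the background limit of its sample, and with that sample set to its limit the values were at least 1.98-fold higher after birth in EC. In AT2 cells it had 74.15 and 189.6 at P1 and 94.3 and 81.2 at P7, against 284 and 207 at E16.5 and 158 and 126 at E18.5, a change of -1.06 ± 0.35 (SE; limma, adjusted p = 0.0254). The EC minus AT2 difference of 2.23 ± 0.52 (SE), fitted with the E18.5 value as deposited, passed narrowly (limma, adjusted p = 0.0498), and it missed the threshold in 9 of 18 alternatives. MIMAT0000381 was below background in all 6 EC samples, at 1.00 to 1.16 after birth and 2.78 to 7.93 before it, and so had no measured change in EC. In AT2 cells it stood between 889 and 1471 after birth, against 1.00 to 2.48 before it, where no sample was above background.

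Among the probes are 4 for housekeeping messenger RNAs. Actb, which encodes cytoplasmic beta-actin, had 1821 scaled units at P1 and 3105 and 3513 at P7, against 10765 and 11045 at E16.5 and 20420.1 at E18.5. Gapdh, a glycolytic enzyme, had 27.2 at P1 and 84.4 and 91.4 at P7, against 434 and 408 at E16.5 and 579 at E18.5. Rpl19, which encodes a ribosomal protein, had 629 at P1 and 533 and 795 at P7, against 2827 and 2148 at E16.5 and 3686 at E18.5. On the scaled axis the postnatal samples lay below every embryonic one for all 3, and the E18.5 sample was the highest.

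In scaled values these differences amount to 4.96-fold lower after birth for Actb (log2 -2.31), 7.87-fold for Gapdh (-2.98) and 4.38-fold for Rpl19 (-2.13). Each reached the smallest p the design allows (exact permutation test, two-sided, n = 3 each, p = 0.1, adjusted p = 0.167 over 5 tests), which cannot pass the threshold. B2m, which encodes the invariant subunit of class I molecules, had 99.3 at P1 and 875 and 1281 at P7, against 839.6 and 785 at E16.5 and 1728 at E18.5, with overlapping sides (log2 -1.12, exact permutation test, p = 0.6, adjusted p = 0.6). That difference rests on the P1 sample and was 0.02 without it. The 4 probes were above background in all 6 samples. Their counts were multiplied by the factor of each sample. It was 0.394 at P1 and 1.16 and 0.870 at P7, against 3.05 and 2.78 at E16.5 and 7.93 at E18.5. Every embryonic factor was above every postnatal one. Divided by these factors, the values of the sides overlap for each of the 4 probes. The scaled falls thus include the difference in factors. The recovered counts of these probes were not tested between the sides. Whether messenger RNA as a whole, these genes alone or the microRNA signal beside them differed was not tested. Relative to the microRNA total the differences were -2.20 for Actb, -2.87 for Gapdh, -2.02 for Rpl19 and -1.01 for B2m. Relative to the median of the tested microRNAs they were -1.80 for Actb, -2.46 for Gapdh, -1.62 for Rpl19 and -0.61 for B2m. Both of these ratios again divide by microRNA signal.

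**Figure D5:**
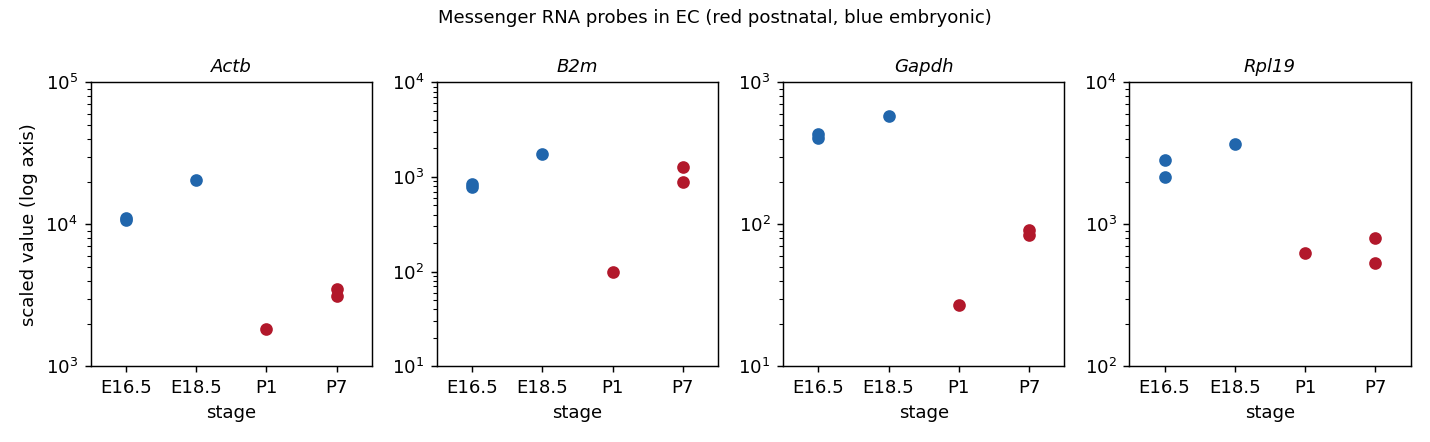
Scaled values (log axis) of the 4 messenger RNA probes in the 6 EC samples by stage, 1 point per sample. Actb, Gapdh and Rpl19 lie lower in all 3 postnatal samples than in any embryonic one, and for B2m only the P1 sample lies below all others.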

How the data were processed

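Total RNA of sorted cells was prepared with the nCounter mouse miRNA kit, per the labels' protocols, and the submitters' processing notes name the build mm10. How the values were normalized is not given in the sources used here. Deposited by the authors was 1 table of 626 rows and 23 columns whose values are a signal, nCounter counts times 1 factor per sample (0.296 to 7.93), as the values show: 99.99% of 13861 scaled values were whole multiples of the step within 0.1. In 9 columns low values had been raised to 1, and these were taken as 1 count. The 14 ERCC rows are unscaled. Columns were matched to samples by description. Of 602 microRNA probes, 302 were above the background limit in at least 2 samples and were tested. The identifiers matched 0 names in the reference tables, so the lists fixed by microRNA name could not be tested. The members and lists were chosen with earlier results of these data known.

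The test was limma 3.58.1 (R 4.3.3, eBayes with intensity trend) on log2(value + 1), in place of a count test because the values are scaled. It fitted 1 mean per cell type and stage (12 groups, 23 samples). For low microRNAs such fold changes can understate rises and overstate falls, since the scaled background limits were higher before birth. The contrast weighted the 3 postnatal and 3 embryonic EC samples equally. P-values are two-sided. Named microRNAs are the highest and lowest changes whose higher side was above the common floor, 2 per direction. EC and AT2 samples share specimen numbers (correlation within a specimen 0.231). The fit of the contrast across birth was checked on simulated data. Recovered counts were also tested with edgeR 4.0.16. The median shift followed by the common floor, the count of well-measured microRNAs under each setting and the fit without both single samples were added after seeing the data.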

Additional observations from a re-analysis of the deposited data

Results flagged for a closer look

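In 3 microRNAs the change across birth differed between EC and AT2 cells by the interaction contrast. The EC minus AT2 difference on the log2 scale was 2.23 for MIMAT0000151 and -2.90 for MIMAT0003151. For MIMAT0000381 it was -10.47, a fitted value with no EC sample above background (limma adjusted p = 0.00668, and 0.2 with edgeR).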

How the results depend on the processing

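Of the 78 microRNAs past the threshold across birth in EC, the count became 48 with the median shift, 43 with quantile normalization, 51 with the common floor, 47 with edgeR, 41 with background subtracted, 49 with detection required in 2 of the 6 EC samples, 36 on the 10 EC samples, 38 on the 6, 288 with no filter, 41 with the shift and then the floor, 51 within prefix 15, 11 within prefix 16 and 37 without both single samples. Leaving out 1 sample gave 33 to 68. The well-measured 34 became 22 on the 10 EC samples, 19 on the 6 and 8 within prefix 16, and 22 to 30 with 1 sample left out (22 without P7 replicate 2). Each of the 34 kept its sign under the alternatives run, except that 32 did within each prefix. Splits of higher against lower were 23 to 20 with quantile normalization, 25 to 16 with background subtracted and 14 to 37 with the common floor.

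The 0 of E18.5 minus E16.5 became 21 with the floor. The 4 of P1 minus E18.5 became 0 with the median shift and with edgeR, 9 with quantile normalization, 12 with the floor and 23 with a pseudocount of 10. The 1 of P7 minus P1 became 2, 11 and 3 with the floor, edgeR and a pseudocount of 10. The 118 in AT2 cells became 69 with the median shift, 69 with quantile normalization and 64 with the floor. The 3 interaction calls became 34 with the floor, 1 with edgeR, 8 with background subtracted, 5 without the second EC samples of P14 and P28, and 1 to 6 with 1 EC sample left out, 6 without P1 and 1 without P7 replicate 2. With specimen as a replicate block they became 7; the block, whose pairing comes from the titles, moved the main count to 81. The causes of these moves were not tested.

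With 1 sample left out, the log2 differences ranged from -2.50 to -2.01 for Actb, -3.29 to -2.41 for Gapdh, -2.33 to -1.94 for Rpl19 and -1.83 to 0.02 for B2m, and the MIMAT0000138 share difference from 1.35 to 6.16 percentage points. Low counts limit the embryonic side most, where E18.5 had 36373 microRNA counts.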
